A study of Mus musculus with 12 samples.

Results

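Of the 12 arrays of a mouse colorectal tumor series, 6 hold tumor stroma, 3 from wild type mice and 3 from mice that lack Stat3 in myeloid cells, and these are compared here across 16635 named genes. The arrays were chosen by their labels, Stat3wt stroma and Stat3dm stroma. Both groups carried colitis-associated tumors induced with the AOM/DSS protocol, in which the carcinogen azoxymethane is combined with dextran sulfate sodium, an irritant of the colon lining. They differed in genotype: the Stat3wt mice were wild type, and the Stat3dm mice had a conditional deletion of Stat3 confined to the myeloid compartment. Which Cre driver made the deletion, and the strain and age of the mice, are not stated in the labels. Tumor and stroma had been separated by laser-capture microdissection of paraffin material, each sample pooled 2 tumors of 1 mouse, and 50 ng of RNA were amplified with a kit for fixed tissue. The question of the design is which stromal genes depend on STAT3 of the myeloid compartment.

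The STAT3 protein carries signals from cytokine receptors to the nucleus, where it acts as a transcription factor. In macrophages and neutrophils it carries the signal of interleukin 10 and restrains inflammatory genes, and mice without it in these cells are known to develop enterocolitis. In the tumor stroma, myeloid cells lie beside fibroblasts, vessels and lymphocytes, and these cells exchange chemokines and interferons.

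All values are log2 signals, so that a difference of 1 is a 2-fold difference, and differences are deletion minus wild type with their standard error (SE) from a limma fit. With Benjamini-Hochberg adjustment, 0 of 16635 genes passed an adjusted p of 0.05 (0.0%), and the smallest adjusted p was 0.0637, of Dkk2. At an unadjusted p under 0.05, 522 genes were higher in deletion stroma (3.14%) and 322 lower (1.94%), together 5.07% of genes, close to the share that a threshold of 0.05 sets. Of these, 16 higher and 9 lower genes passed the filter on dim genes, a mean of at least 3.65, only through their highest group. They remain in all counts of higher and lower genes below. The 3 deletion arrays all lay above the 3 wild type arrays for 854 genes (5.13%) and all below them for 935 (5.62%), together 10.8% of genes. The median difference over all genes was -0.016. A difference of more than 1 was seen for 191 genes, 138 higher and 53 lower, and of these 77 and 38 had groups that did not overlap. Every p for a single gene below is unadjusted unless called adjusted, and differences are given as values and not as calls.

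The count of adjusted calls moved with how the spread was modelled. It was 1 with quantile normalization, 13 with the spread of each array as a covariate, 164 with array weights, and 45 with array weights estimated gene by gene, a setting chosen after seeing the data. It was 1 without wild type stroma 1 (Dkk2), 2 without wild type stroma 2 (Zg16 and Dmbt1), 0 without wild type stroma 3, and 1 without deletion stroma 1 (Cd79a), deletion stroma 2 (Aqp4) or deletion stroma 3 (Car4). Of the 522 genes higher at the unadjusted threshold, 147 stayed there without any one of the 6 stroma arrays, and of the 322 lower genes 65 did. With deletion stroma 1 alone left out, 290 of the higher and 146 of the lower genes stayed. In all, 421 genes were then higher and 204 lower.

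The labelled tissue was checked against marker sums, the log2 of the summed linear signals of a cell type's markers. Fibroblast markers summed to between 11.20 and 12.43 on the stroma arrays and to between 10.68 and 11.28 on the tumor arrays. Epithelial markers summed to between 10.92 and 12.37 on the stroma arrays and to between 12.24 and 13.08 on the tumor arrays, so the stroma samples held epithelial RNA as well. Both ranges overlapped between the tissues through deletion stroma 1 alone among the stroma arrays. Its fibroblast sum of 11.20 lay below that of wild type tumor 3 (11.28), and its epithelial sum of 12.37 above that of deletion tumor 1 (12.24). Within stroma, the epithelial sum was 11.85, 11.90 and 11.57 in wild type and 12.37, 10.92 and 11.80 in deletion, so that deletion stroma 1 was the highest and deletion stroma 2 the lowest of the 6. Leukocyte markers summed to 8.67, 9.04 and 9.59 in wild type and to 10.02, 10.30 and 9.93 in deletion stroma. The leukocyte sums thus did not overlap between the genotypes, and neither did those of B cell markers, at 5.75 to 6.18 against 6.41 to 8.06. Fibroblast, smooth muscle, endothelial, myeloid and T cell sums overlapped between the groups.

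**Figure D1:**
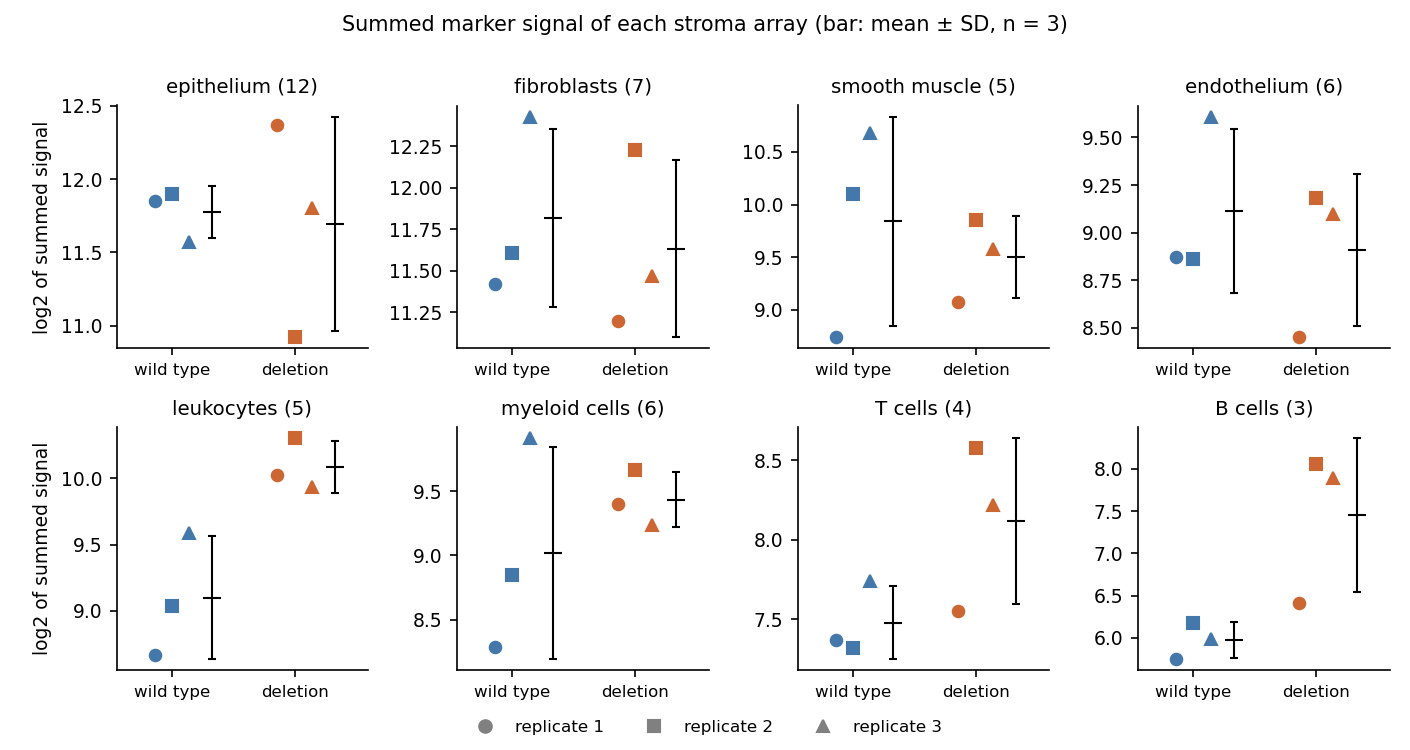
Summed marker signal of the 6 stroma arrays on a log2 scale, with the number of markers in each panel title, points for single arrays and bars for the mean ± SD (n = 3). Leukocyte sums reach 9.59 at most in wild type and start at 9.93 in deletion stroma, while the fibroblast, smooth muscle, endothelial and myeloid panels overlap.

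Genes made by nearly all leukocytes lay higher in deletion stroma than in wild type stroma. All 20 tested members of a pan-leukocyte list had a difference above 0, against 47.2% of all genes. At the unadjusted threshold 17 were higher and 0 lower (3.14% and 1.94% of all genes). In 12 the groups did not overlap, with deletion higher (5.13% of all genes). The list median was 0.82, between 0.66 and 1.05 when any 1 stroma array was left out, beside -0.02 for all genes. In bulk tissue, fewer or more cells of a type cannot be told apart from less or more RNA per cell.

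Cd53, a tetraspanin of the leukocyte surface, read 5.05, 4.88 and 5.65 on the wild type and 7.38, 6.71 and 6.62 on the deletion arrays. All 3 deletion arrays lay above all wild type arrays, and the difference was 1.72 ± 0.28 (SE, n = 3 in each group), 3.28-fold, with p 2.3e-05 and an adjusted p of 0.0956 in the limma fit. Ptprc, which encodes the common leukocyte antigen CD45, read 5.27, 5.95 and 6.44 in wild type and 6.81, 7.47 and 7.01 in deletion stroma, a difference of 1.21 ± 0.35 with no overlap. Selplg, the selectin ligand with which leukocytes roll on vessels, differed by 1.07 ± 0.24, Cd52, a small surface glycoprotein, by 1.14 ± 0.29, and Itgal, the alpha chain of the integrin LFA-1, by 0.72 ± 0.18. In all 3 the groups did not overlap.

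Lymphocyte genes lay higher as well. Of 15 tested genes of B and plasma cells, 8 were higher and 1 lower at the unadjusted threshold (3.14% and 1.94% of all genes). Their median was 0.68. Cd79a, a signaling chain of the B cell receptor, read 4.24, 4.29 and 4.45 in wild type and 4.99, 6.79 and 6.91 in deletion stroma. Deletion stroma 2 and 3 lay far above the wild type arrays and deletion stroma 1 only a little, and the difference was 1.91 ± 0.42. Without deletion stroma 1 it was 2.53 (adjusted p 0.0168). Cd22, an inhibitory receptor of B cells, showed the same order of the deletion arrays, at 4.36, 4.46 and 4.40 against 4.79, 5.36 and 6.03. Cxcr5, the receptor that guides B cells into follicles, differed by 0.90 ± 0.22 without overlap, and its ligand Cxcl13 by 1.28 ± 0.38 with overlap.

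Of 13 tested genes of the T cell receptor complex and its signaling, 5 were higher and 0 lower (3.14% and 1.94% of all genes). The median was 0.54, and 0.29 without deletion stroma 2. Lat, the adaptor that links the T cell receptor to its downstream enzymes, read 5.17, 6.11 and 6.11 in wild type and 6.60, 7.45 and 7.21 in deletion stroma, a difference of 1.29 ± 0.29 without overlap. Il7r, the receptor of a survival cytokine of T cells, differed by 0.78 ± 0.24 without overlap. Cd3d and Cd3g, subunits of the receptor complex, differed by 0.69 ± 0.26 and 1.00 ± 0.42, with overlap. T cell markers summed to 7.55 in deletion stroma 1, within the wild type range of 7.32 to 7.74, and to 8.58 and 8.22 in deletion stroma 2 and 3.

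Myeloid genes were mixed. Of 25 tested genes of macrophages and monocytes, 20 had a difference above 0, but 1 was higher at the unadjusted threshold and 0 lower. That is 4.0% higher, near the 3.14% of all genes. The median of 0.32 was -0.03 without wild type stroma 1 and 0.56 without wild type stroma 3. That 1 gene was Ccr2, the receptor that brings monocytes out of the marrow, at 4.53, 4.28 and 5.04 against 5.14, 5.57 and 5.32, a difference of 0.73 ± 0.22 without overlap. Itgam, the integrin chain CD11b, differed by 0.63 ± 0.36 with overlap, and by 0.26 without deletion stroma 1. Several receptors of monocytes and granulocytes outside that list also lay higher. Clec12a, an inhibitory lectin receptor, read 3.34, 3.48 and 3.88 in wild type and 5.12, 4.86 and 4.61 in deletion stroma, a difference of 1.3 ± 0.23. It passed the limit of 3.65 below which dim genes were left out through deletion stroma alone, as did Cd86 below, so no p is given for either.

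Fcgr4, an activating receptor for antibody, differed by 1.55 ± 0.31, from 4.66, 4.78 and 5.81 to 6.69, 7.09 and 6.11. Ly6c2, a monocyte surface marker, read 5.12, 4.76 and 4.87 against 6.88, 5.85 and 6.92, a difference of 1.63 ± 0.32. The related Ly6i differed by 2.16 ± 0.53, and Cd300lf, an inhibitory receptor of myeloid cells, by 1.11 ± 0.23. In each of these 4 genes the groups did not overlap. Genes of the Ly6 family are similar in sequence, and how far their probe sets share RNA was not tested. Cd86, a ligand with which antigen-presenting cells costimulate T cells, read 3.82, 3.51 and 3.83 in wild type and 4.55, 4.74 and 4.46 in deletion stroma, and its difference of 0.86 ± 0.18 stayed between 0.76 and 0.92 when single arrays were left out.

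**Figure D2:**
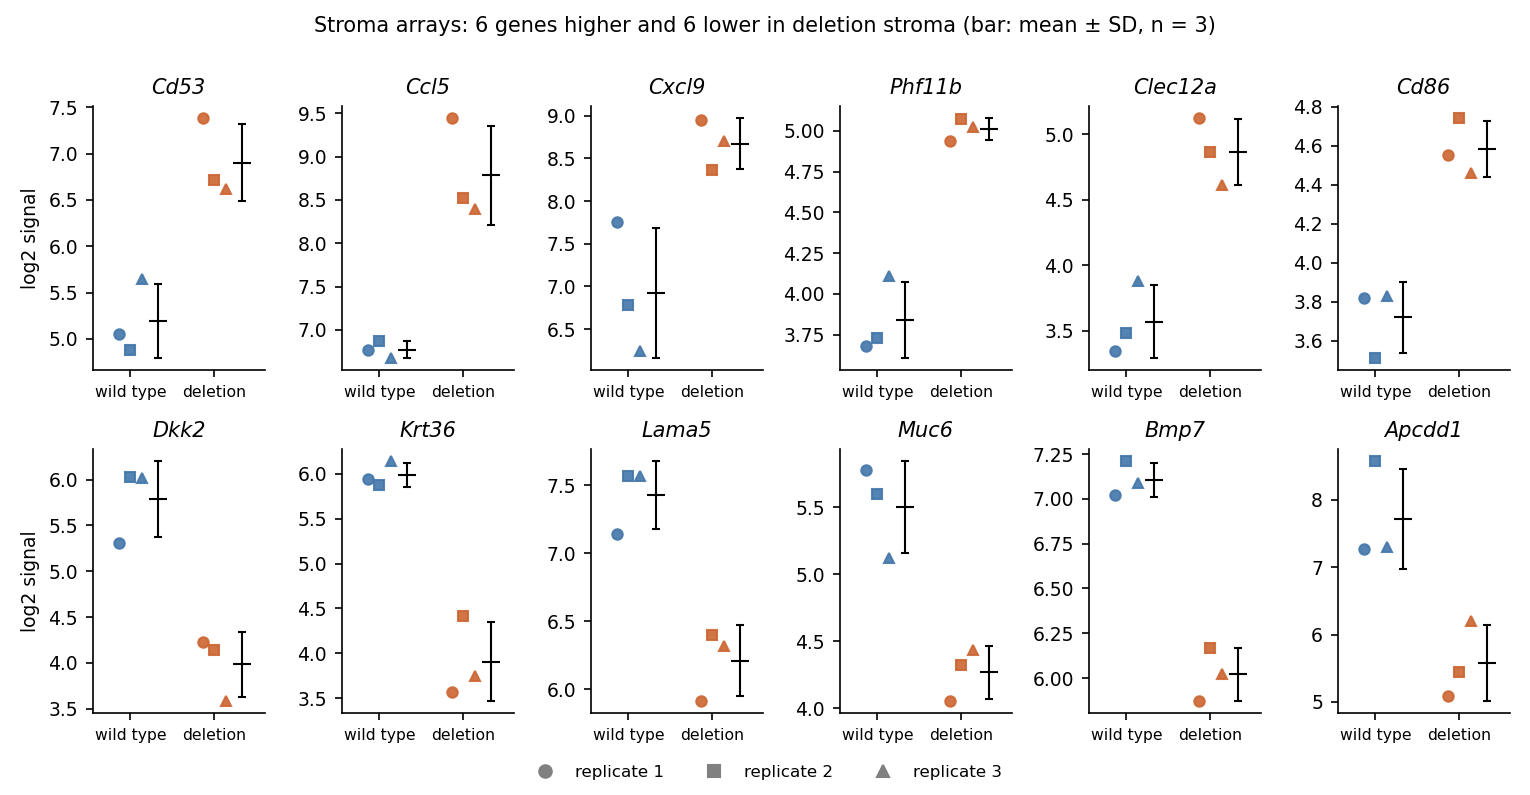
Log2 signal of 6 genes higher and 6 genes lower in deletion stroma, one panel per gene with its own axis, points for single arrays and bars for the mean ± SD (n = 3). In all 12 panels the 3 deletion arrays lie on one side of the 3 wild type arrays, and no gene passed an adjusted p of 0.05.

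Chemokines and their receptors, which guide leukocytes into tissue, lay higher as well. Of 31 tested members, 28 had a difference above 0, and 11 were higher and 1 lower at the unadjusted threshold (3.14% and 1.94% of all genes). The median was 0.39, or 0.68 without wild type stroma 3. Ccl5, which attracts T cells and monocytes, read 6.77, 6.87 and 6.67 in wild type and 9.44, 8.52 and 8.39 in deletion stroma. The difference was 2.02 ± 0.32, 4.04-fold, without overlap (p 1.88e-05, adjusted p 0.0956). Cxcr4, a homing receptor of many leukocytes, differed by 0.97 ± 0.23 without overlap.

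Genes of antigen presentation, which load peptides onto MHC molecules for T cells, lay higher too. All 11 tested genes of MHC class II had a difference above 0. At the unadjusted threshold 9 were higher and 0 lower (3.14% and 1.94% of all genes), but the groups failed to overlap in only 3. Over all genes 5.13% were higher without overlap. The median was 0.91, between 0.66 and 1.15 when single arrays were left out. H2-Ab1, a class II chain, read 8.93, 9.91 and 10.56 in wild type and 10.82, 11.21 and 11.02 in deletion stroma, a difference of 1.22 ± 0.33. Ciita, the regulator that turns class II genes on, read 6.54, 6.39 and 6.39 against 6.60, 7.36 and 7.43, with deletion stroma 1 close to wild type, a difference of 0.69 ± 0.24. Of 14 tested genes of MHC class I, 13 lay above 0, and 10 were higher and 0 lower, beside the same shares of all genes. In 11 the groups did not overlap, and the median of 0.52 stayed between 0.49 and 0.57. Psmb9, an immunoproteasome subunit, read 6.70, 6.79 and 6.63 against 7.49, 7.48 and 7.68, a difference of 0.84 ± 0.19. Tap2, of the peptide transporter, differed by 0.72 ± 0.18 and H2-K1, a class I heavy chain, by 0.71 ± 0.20, both without overlap. The H2 genes are similar in sequence, and how far their probe sets share RNA was not tested.

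Interferon-responsive genes showed the same direction. Of 27 tested genes of the type I interferon response, 24 had a difference above 0 and 9 were higher at the unadjusted threshold (3.14% of all genes). The median was 0.43, and 0.24 without deletion stroma 1. Without that array 4 of these genes were higher at the threshold, beside 2.53% of all genes. Irf7, a transcription factor that amplifies interferon production, read 5.73, 5.75 and 5.76 in wild type and 7.40, 6.85 and 6.10 in deletion stroma, a difference of 1.04 ± 0.27. Phf11b, a PHD finger protein, read 3.68, 3.73 and 4.11 against 4.94, 5.07 and 5.02, a difference of 1.17 ± 0.20 (p 3.45e-05). Samhd1, which limits the nucleotides available to viruses, differed by 1.18 ± 0.24 without overlap. Among targets of interferon gamma, Ubd, a ubiquitin-like modifier, differed by 1.11 ± 0.26, and Cd274, which encodes the checkpoint ligand PD-L1, read 5.79, 5.21 and 5.38 against 7.59, 6.11 and 6.06. Deletion stroma 1 held the highest Cd274 value, and the difference of 1.13 ± 0.36 was 0.63 without it. Ifng itself read 3.83, 3.82 and 3.71 in wild type, near the limit of 3.65, and 5.07, 3.84 and 4.03 in deletion stroma, high on deletion stroma 1 alone.

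The promoters of 4 genes that lay higher in deletion stroma are shown for their STAT and interferon motifs: the interferon-induced Gbp5, Irf1 and Isg15, and Reg3b, listed as a STAT3 target. The letters are the 250 bases before the annotated start, 5′ to 3′ on the gene's strand, from RefSeq (GRCm38.p6). Capitals mark matches to TTCNNNGAA, the palindrome bound by STAT factors, in Gbp5 (an interferon-induced GTPase, chr3:142496684-142496933, plus strand), Irf1 (a transcription factor, chr11:53769764-53770013, plus strand) and Reg3b (an antimicrobial lectin, chr6:78370635-78370884, plus strand), and to a pair of GAAA with 2 bases of any kind between them, bound by interferon regulatory factors (IRF), in Isg15 (a ubiquitin-like protein, chr4:156200819-156201068, minus strand), where 3 matches overlap.
Gbp5: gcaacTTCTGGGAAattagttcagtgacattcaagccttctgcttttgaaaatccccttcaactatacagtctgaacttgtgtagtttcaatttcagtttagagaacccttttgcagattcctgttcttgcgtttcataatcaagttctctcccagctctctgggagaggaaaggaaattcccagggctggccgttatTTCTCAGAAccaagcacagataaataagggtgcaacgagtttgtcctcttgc
Irf1: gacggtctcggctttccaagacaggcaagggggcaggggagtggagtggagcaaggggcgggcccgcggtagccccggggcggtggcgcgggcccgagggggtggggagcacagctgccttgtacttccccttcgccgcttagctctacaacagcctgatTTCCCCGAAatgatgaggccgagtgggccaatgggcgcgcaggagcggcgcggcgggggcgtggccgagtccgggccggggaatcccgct
Isg15: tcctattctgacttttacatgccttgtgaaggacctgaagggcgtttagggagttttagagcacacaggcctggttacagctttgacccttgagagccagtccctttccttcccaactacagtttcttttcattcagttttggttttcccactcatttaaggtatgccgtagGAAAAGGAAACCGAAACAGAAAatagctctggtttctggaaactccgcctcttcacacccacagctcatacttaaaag
Reg3b: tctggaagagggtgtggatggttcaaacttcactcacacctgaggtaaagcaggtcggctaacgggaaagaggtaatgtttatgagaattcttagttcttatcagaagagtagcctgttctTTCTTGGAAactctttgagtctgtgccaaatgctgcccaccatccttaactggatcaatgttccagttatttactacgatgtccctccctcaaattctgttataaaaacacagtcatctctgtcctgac

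Matches were counted on both strands in windows from 250 bases before to 50 after the start. In the printed promoters only the motif named for each gene is in capitals. Gbp5 also holds an IRF match on the other strand, left in small letters. TTCNNNGAA stood in the windows of 52 of 408 genes higher at the unadjusted threshold (12.7%), of 16 of 236 lower genes (6.78%) and of 8.3% of all 12947 tested genes with a window. The IRF motif stood in 42 of the 408 higher genes (10.3%), 8 of the 236 lower genes (3.39%) and 3.51% of tested genes. CTTTGAA or CTTTGAT, bound by TCF/LEF factors at the end of the Wnt pathway, stood in 7.35% of higher, 7.63% of lower and 7.55% of tested genes. Of the interferon gamma targets with a window, 8 of 12 held the IRF motif, and of the pan-leukocyte genes 0 of 14 held it. A STAT and an IRF match overlapped in 12 windows of tested genes. Over all 27025 genes with a window in the RefSeq table the shares were 9.55%, 3.99% and 9.88% for the 3 kinds of motif. A match describes the letters of a window and not a bound site.

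Among the 4 genes whose promoters are printed, Gbp5 read 4.75, 4.63 and 4.68 in wild type and 6.39, 5.65 and 5.54 in deletion stroma, and Irf1 6.19, 6.29 and 6.53 against 7.63, 7.08 and 7.02. Isg15 read 4.41, 4.2 and 4.40 against 5.67, 4.60 and 4.92. In all 3 the groups did not overlap and deletion stroma 1 was the highest array, and the Isg15 difference of 0.73 ± 0.30 was 0.42 without that array. Reg3b is described with the epithelial genes below.

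Inhibitors and targets of Wnt signaling lay lower in deletion stroma. This is the pathway that keeps crypt cells dividing and that colorectal tumors hold active. Of 25 tested members of this list, 23 had a difference below 0, and 12 were lower and 0 higher at the unadjusted threshold (1.94% and 3.14% of all genes). In 11 the groups did not overlap, with deletion lower (5.62% of all genes). The median of -0.60 stayed between -0.82 and -0.45 when single arrays were left out. Dkk2, a secreted Wnt antagonist, read 5.31, 6.03 and 6.02 in wild type and 4.23, 4.14 and 3.58 in deletion stroma. The lowest wild type array lay above the highest deletion array, and the difference was -1.80 ± 0.25 (p 3.83e-06). Apcdd1, a membrane inhibitor of Wnt receptors, read 7.27, 8.57 and 7.30 against 5.09, 5.44 and 6.20, a difference of -2.13 ± 0.47. Mmp7, the matrix protease matrilysin of tumor epithelium, differed by -1.76 ± 0.43 without overlap. All of these genes read higher in wild type tumor than in wild type stroma. Their means were 6.89 and 5.79 for Dkk2, 9.46 and 7.71 for Apcdd1, and 9.48 and 8.37 for Mmp7. The stroma samples held epithelial RNA, and its part in the Wnt differences was not tested.

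Lower genes outside that list included epithelial and matrix genes. Krt36, a keratin, read 5.94, 5.88 and 6.14 in wild type and 3.57, 4.41 and 3.74 in deletion stroma, a difference of -2.08 ± 0.42. Krt18, a keratin of simple epithelia, read 9.49, 9.32 and 9.18 against 8.39, 7.72 and 8.58, and Cldn4, a tight junction protein, 7.88, 8.89 and 7.81 against 7.65, 6.60 and 6.63. Their groups did not overlap, although the summed epithelial markers did. They were the 2 lower genes of a pan-epithelial list of 21, of which 14 had a difference above 0 and 1 was higher at the unadjusted threshold. Over all genes 1.94% were lower and 3.14% higher. The list median was 0.15 (-0.14 without deletion stroma 1). The higher one was Krt20, a keratin of mature gut epithelium, at 7.19, 6.64 and 5.77 against 9.39, 7.11 and 7.37, a difference of 1.42 ± 0.54 that was 0.71 without deletion stroma 1. Lama5, a laminin chain of basement membranes, differed by -1.22 ± 0.25, and Muc6, a gel-forming mucin best known from the stomach, by -1.24 ± 0.26. Ddr1, a collagen receptor of epithelial cells, differed by -0.81 ± 0.20, at 7.21, 7.51 and 7.23 against 6.51, 6.46 and 6.54. These lower genes also read higher in wild type tumor than in wild type stroma, Krt36 at means of 7.55 and 5.99. The part of epithelial RNA in their differences was not tested.

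The widest differences among lower genes came with wide spread in wild type stroma. Mt4, a metallothionein of stratified epithelia, read 5.99, 9.81 and 6.98 in wild type and 3.63, 3.56 and 5.69 in deletion stroma, a difference of -3.30 ± 1.04. Spock2, a matrix proteoglycan, read 6.79, 10.17 and 9.21 against 5.08, 6.26 and 6.58, a difference of -2.75 ± 0.93. Pnliprp2, a lipase, differed by -2.20 ± 0.53. Wild type stroma 2 was the highest array for all 3 genes.

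BMP signaling, which opposes stem cell renewal in the crypt, was represented by 25 tested genes together with hedgehog signaling. Of these, 20 had a difference below 0, and 5 were lower and 0 higher at the unadjusted threshold (1.94% and 3.14% of all genes). The median of -0.26 was -0.16 without deletion stroma 1. The ligand Bmp7 read 7.02, 7.21 and 7.09 in wild type and 5.87, 6.17 and 6.02 in deletion stroma. The arrays of a group lay close together and apart from the other group, and the difference was -1.09 ± 0.26. Smad6, an intracellular inhibitor that BMP signals induce, differed by -0.69 ± 0.21 without overlap. The ligand Bmp4 differed by -0.81 ± 0.32, and by -0.38 without deletion stroma 1. Means in wild type tumor and wild type stroma were 7.33 and 7.11 for Bmp7, and 6.91 and 7.57 for Bmp4. Of 16 stem cell and crypt genes 4 were lower, among them Tnfrsf19, a receptor of the tumor necrosis factor family, at -1.05 ± 0.25.

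The list of mast cells and eosinophils was the one leukocyte list with a median below 0. Of 14 tested genes of mast cells and eosinophils, 11 had a difference below 0, and 6 were lower and 0 higher at the unadjusted threshold (1.94% and 3.14% of all genes). The list median was -0.34. Without wild type stroma 3 it was -0.07, and without wild type stroma 1 it was -0.57. Mcpt2, a protease of mucosal mast cells, read 5.13, 5.31 and 6.81 in wild type and 2.94, 4.32 and 3.77 in deletion stroma, a difference of -2.07 ± 0.63. Tpsb2, a tryptase, read 4.62, 5.04 and 7.80 against 3.99, 4.01 and 3.72, so that wild type stroma 3 stood well above the others, and the difference of -1.92 ± 0.63 was -0.93 without it. Mcpt1 differed by -1.41 ± 0.46 and Cma1, a chymase, by -0.96 ± 0.33, both without overlap, and the latter was -0.47 without wild type stroma 3. These proteases are close relatives, and probes shared between them were not tested for.

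Collagen and other matrix genes had small differences of 1 sign. Of 27 tested, 25 lay below 0, but 2 were lower and 0 higher at the unadjusted threshold: Lamb1, a laminin chain, at -0.81 ± 0.34, and Nid1, which joins laminin to collagen, at -0.75 ± 0.33. The median of -0.30 was 0.00 without wild type stroma 3, -0.13 without deletion stroma 1 and -0.53 without wild type stroma 1. Fibroblast genes had a median of 0.00, with 1 of 21 higher and 1 lower, each 4.76% of the list. Those shares were near the 3.14% and 1.94% of all genes. The lower one was Pdgfra, the receptor that marks fibroblasts, at -0.94 ± 0.37. Its difference was -0.49 without deletion stroma 1.

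Genes of differentiated colon epithelium lay higher in deletion stroma. Of 20 tested genes of absorptive colonocytes, 17 had a difference above 0, and 11 were higher and 1 lower at the unadjusted threshold (3.14% and 1.94% of all genes). The list median was 1.02. That median was 0.52 without deletion stroma 1 and up to 1.35 without another array. Without deletion stroma 1, 5 of these genes were higher and 0 lower at that threshold, beside 2.53% of all genes higher. Car4, a carbonic anhydrase of the surface colonocyte, read 3.68, 5.09 and 4.47 in wild type and 9.19, 7.55 and 5.98 in deletion stroma. The deletion arrays did not overlap the wild type arrays but ranged over more than 3 log2 units, and the difference was 3.16 ± 0.57, 8.93-fold. Slc26a3, the chloride and bicarbonate exchanger of the colon surface, read 3.98, 3.49 and 3.52 against 7.21, 5.5 and 4.54, and Aqp4, a water channel, 4.93, 5.0 and 5.05 against 8.17, 5.78 and 7.26. Muc3, a membrane mucin, differed by 1.98 ± 0.42 without overlap.

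Goblet cell genes had a median of 0.38 over 20 tested members, 0.16 without deletion stroma 1. At the unadjusted threshold 6 were higher and 0 lower (3.14% and 1.94% of all genes). Without deletion stroma 1, 3 were higher, beside 2.53% of all genes. Zg16, a lectin of the mucus layer, read 6.31, 8.16 and 6.36 in wild type and 10.41, 9.38 and 9.30 in deletion stroma. The difference was 2.75 ± 0.44, 6.73-fold, without overlap (p 2.04e-05, adjusted p 0.0956). Fcgbp, which crosslinks mucus, read 5.81, 8.15 and 7.06 against 9.75, 8.42 and 8.78, and Clca1, a mucus-processing protease, differed by 1.59 ± 0.49. Wild type stroma 2 was the highest wild type array for all 3.

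Among 14 tested Reg and antimicrobial genes, 7 were higher and 2 lower at the unadjusted threshold (3.14% and 1.94% of all genes). Their median of 0.91 was 0.39 without deletion stroma 1 and 0.5 without wild type stroma 3. Without deletion stroma 1, 4 were higher and 2 lower, beside 2.53% of all genes higher. Reg3b read 8.89, 5.6 and 6.53 in wild type and 11.48, 9.68 and 10.37 in deletion stroma, a difference of 3.51 ± 1.07, 11.4-fold. The wild type arrays alone spanned more than 3 log2 units and still did not reach the deletion arrays. Dmbt1, a scavenger receptor protein secreted on mucosal surfaces, read 7.69, 8.86 and 7.23 against 10.56, 9.36 and 9.91, a difference of 2.01 ± 0.37. The 2 lower genes were products of Paneth and goblet cells: Ang4, an antimicrobial ribonuclease, at 7.11, 7.72 and 9.33 against 6.43, 5.99 and 5.65, and Pla2g2a, a secreted phospholipase, at -1.70 ± 0.48. The summed epithelial markers, highest in deletion stroma 1 at 12.37 and lowest in deletion stroma 2 at 10.92, stand beside all these epithelial genes, and their part in the differences was not tested.

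**Figure D3:**
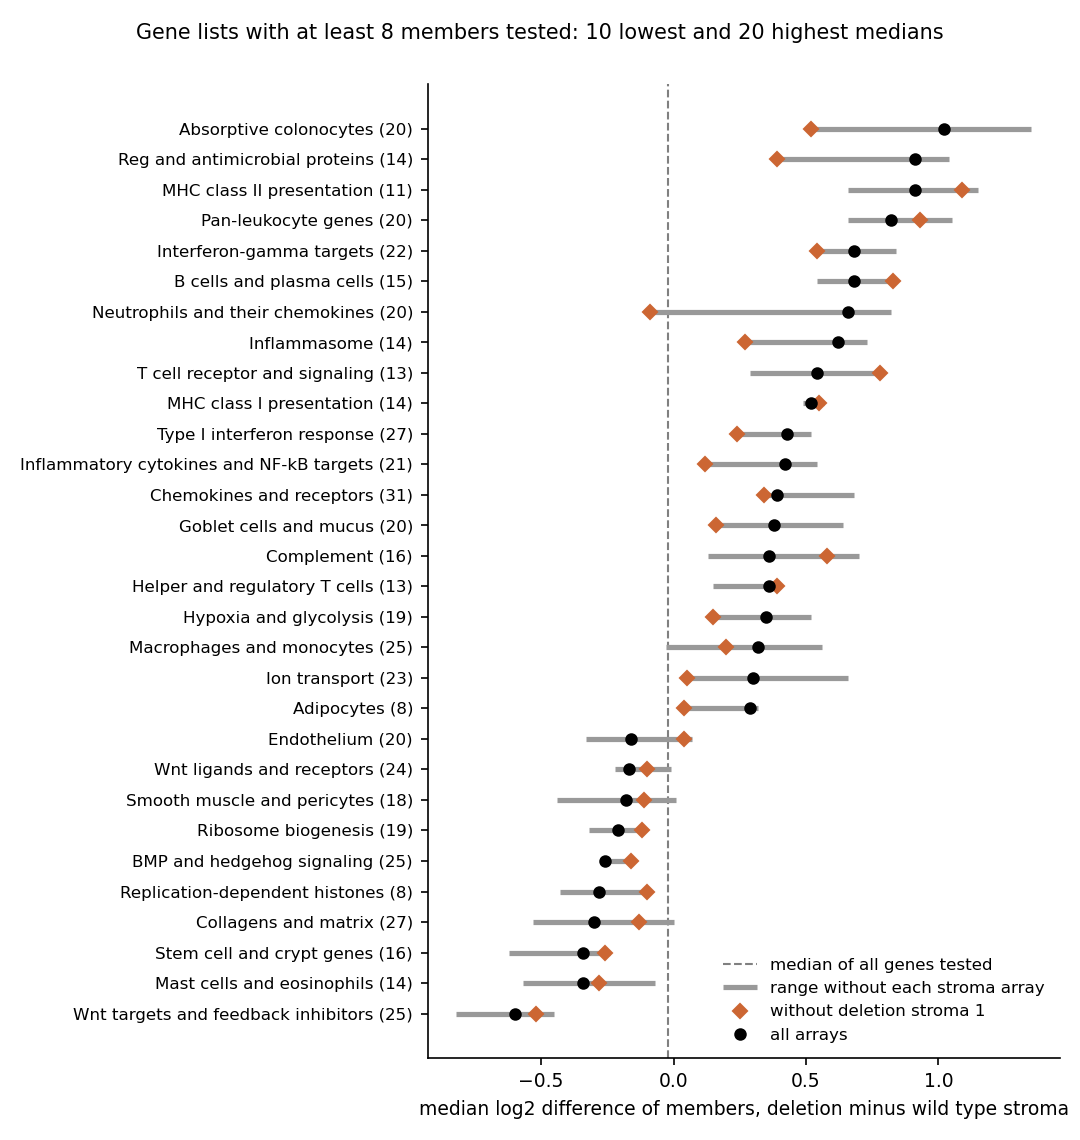
Median log2 difference between deletion and wild type stroma of the members of 30 gene lists, with the number of tested members in brackets. Black points use all arrays, orange diamonds leave out deletion stroma 1, grey lines span the medians without each stroma array, and the dashed line is the median of all genes; the neutrophil median goes from 0.66 to -0.09 without deletion stroma 1 and the pan-leukocyte median from 0.82 to 0.93.

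Deletion stroma 1 stood apart from the other arrays in a set of acute inflammatory genes. On it 159 genes lay more than 1 above the next highest stroma array, against 5 to 30 genes on the other 5 arrays, and 28 genes lay more than 1 below the next lowest, against 0 to 55. The first principal component of the 6 arrays, with 32.1% of the variance, placed deletion stroma 1 at 41.0 and wild type stroma 3 at -30.4. On the second component, with 28.7%, wild type stroma 1 stood apart at 42.5 against -23.5 to 10.1 for the others, and that array was the highest or lowest of the 6 for 45.2% of genes, against 38.9% for deletion stroma 1. The 8 genes with the widest gaps of deletion stroma 1 above the next array held 5 cytokines and chemokines (Ccl3, Cxcl3, Cxcl2, Il1a and Il1b), the enzymes Ptgs2 and Acod1, and Fabp2. Il1b, which encodes interleukin 1 beta, read 10.93 in deletion stroma 1, 7.16 and 6.84 in deletion stroma 2 and 3, and 7.78, 6.28 and 7.34 in wild type stroma. Its difference of 1.18 ± 0.78 was -0.13 without that array. Ptgs2, the inducible cyclooxygenase, read 9.61 in deletion stroma 1 and between 4.42 and 5.63 elsewhere, and its difference went from 1.35 to -0.31.

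The same gap was seen in Il1a, Cxcl2, Cxcl3, Ccl3 and Acod1, the last an enzyme of activated macrophages that makes itaconate. Without deletion stroma 1 the Il1a difference was -0.13, that of Cxcl2 -0.25, that of Cxcl3 -0.43, that of Ccl3 0.03 and that of Acod1 0.21. S100a8, an abundant neutrophil protein, read 11.33 in deletion stroma 1 and between 8.08 and 9.12 on the other 5 arrays. Nos2, the inducible nitric oxide synthase, did not overlap between the groups, at 5.86, 5.87 and 5.25 against 9.71, 6.01 and 6.89, but its difference of 1.88 ± 0.67 was 0.79 without that array.

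Over the 20 tested genes of neutrophils and their chemokines the median was 0.66 with and -0.09 without deletion stroma 1, and 3 were higher at the unadjusted threshold with it and 1 without (3.14% and 2.53% of all genes). The median of inflammatory cytokines and NF-kB targets went from 0.42 to 0.12, and that of inflammasome genes from 0.62 to 0.27. Among these, Il18bp, which neutralizes interleukin 18, kept a difference of 0.66 (0.62 ± 0.18 with all arrays), and Casp4, a caspase that senses bacterial lipopolysaccharide, one of 0.60 (0.76 ± 0.25). Fabp2, a fatty acid binding protein of enterocytes, was also high on that stroma array alone, at 8.84 against 3.72 to 4.72. Low on that array were Reg4, a lectin of secretory cells, at 4.89 against 6.78 to 10.35, and Adamdec1, a metalloprotease of the gut lamina propria, at 7.86 against 9.21 to 9.87. Deletion tumor 1 stood apart from the other tumor arrays in the same direction. It read 6.89 against 3.49 to 3.94 for Fabp2, 5.15 against 8.85 to 10.97 for Reg4, and 7.88 against 8.50 to 9.43 for Adamdec1. For Il1b (6.81) and Ptgs2 (5.21) that array lay within the range of the other tumor arrays.

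**Figure D4:**
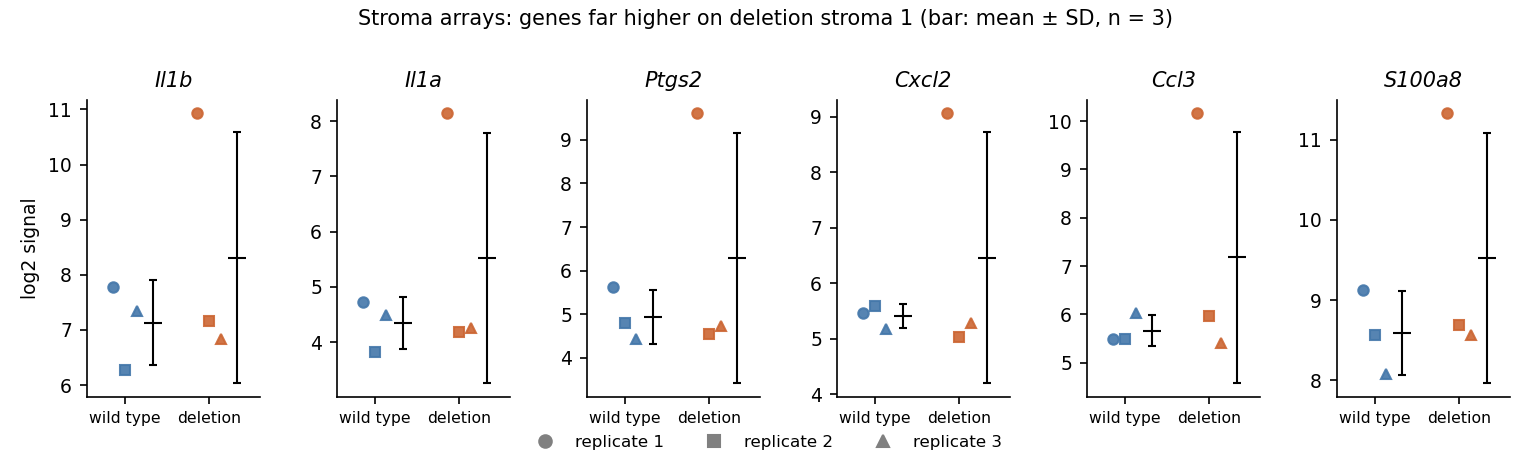
Log2 signal of 6 inflammatory genes on the 6 stroma arrays, with points for single arrays and bars for the mean ± SD (n = 3). Deletion stroma 1 (orange circle) lies far above the other 5 arrays in each panel, as for Il1b at 10.93 against at most 7.78, and deletion stroma 2 and 3 lie among or near the wild type arrays.

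Stat3 itself read 6.72, 7.33 and 8.02 in wild type and 7.35, 7.32 and 7.40 in deletion stroma. The groups overlapped, and the 95% interval around the difference of 0.00 ± 0.32 ran from -0.68 to 0.69. No source used here says whether its probe set covers the deleted part, so its level checks nothing, and by the design the other cells of the stroma keep the gene. Of 29 tested genes listed as STAT3 targets, 20 had a difference above 0, and 3 were higher and 0 lower at the unadjusted threshold (3.14% and 1.94% of all genes). The median was 0.22, or 0.08 without deletion stroma 1. The 3 higher genes were Reg3b, described above, its relative Reg3g, at 8.61, 6.67 and 5.95 against 10.41, 8.09 and 9.73, a difference of 2.33 ± 0.77 with overlap, and Icam1, an adhesion molecule for leukocytes, at 0.52 ± 0.20 without overlap. Socs3, the feedback inhibitor that STAT3 induces, read 7.44, 7.2 and 7.41 against 8.25, 7.54 and 7.32, and Bcl3, a nuclear regulator of NF-kB, differed by -0.15 ± 0.31. Il10ra, the chain that binds interleukin 10, differed by 0.72 ± 0.25 with overlap, and Csf3r, the receptor of the neutrophil growth factor G-CSF, by 0.73 ± 0.22 without overlap.

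The same genotypes were compared in the tumor arrays, none of which is shared with the stroma comparison, although labels do not say whether arrays of the same number come from the same mouse. In tumor 3 of 16635 genes passed an adjusted p of 0.05 (0.018%), all lower: Dkk2, Stra6, a receptor for retinol binding protein, and Plat, the tissue plasminogen activator. The count was 1 without wild type tumor 2, 0 without wild type tumor 3, 7 without wild type tumor 1 or wild type stroma 1, and 5 without wild type stroma 2 or deletion tumor 3. The Dkk2 difference was -2.16 in tumor (adjusted p 0.0076) and -1.80 in stroma, that of Stra6 -2.83 and -1.31, and that of Plat -2.29 and -1.24. The difference between the tissues was tested as an interaction. It passed an adjusted p of 0.05 for 0 of 16635 genes in the limma fit (0.0%; smallest adjusted p 0.995), with 222 (1.33%) and 179 (1.08%) genes at an unadjusted p under 0.05 with the stroma difference higher and lower. With array weights 4 genes passed, and with weights estimated gene by gene 3.

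Pan-leukocyte genes differed in stroma and had tumor differences near 0. The 20 pan-leukocyte genes had a median of 0.82 in stroma and of 0.04 in tumor. In tumor 11 of 20 lay above 0, beside 48.7% of all genes. Of the 20, 6 had an unadjusted interaction p under 0.05 with the stroma difference higher, beside 1.33% of all genes. Cd53 differed by 1.72 in stroma and 0.08 in tumor (interaction p 0.000978) and Phf11b by 1.17 and -0.10 (p 0.000433). Zg16 differed by 2.75 in stroma and 0.44 in tumor (p 0.00236). In the other direction stood Ido2, an enzyme of tryptophan breakdown, at -0.79 and 0.46 (p 0.00193) and Tyro3, a receptor kinase that dampens innate responses, at -0.44 and 0.41 (p 0.00323). After adjustment none of these passed.

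The Wnt list lay low in both tissues, with a median of -0.60 in stroma and -0.98 in tumor. At the unadjusted threshold 12 and 15 of 25 were lower (1.94% of all genes in stroma and 4.5% in tumor). An unadjusted interaction p under 0.05 was seen for 0 members, beside 1.33% of all genes with the stroma difference higher and 1.08% with it lower. Reg3b differed by 3.51 in stroma and 5.07 in tumor, Aqp4 by 2.08 and 2.16, and Krt36 by -2.08 and -2.0. Of the 522 genes higher in stroma at the unadjusted threshold, 407 had a tumor difference above 0, and of the 322 lower genes 250 had one below 0, beside 48.7% of all genes above 0 in tumor.

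**Figure D5:**
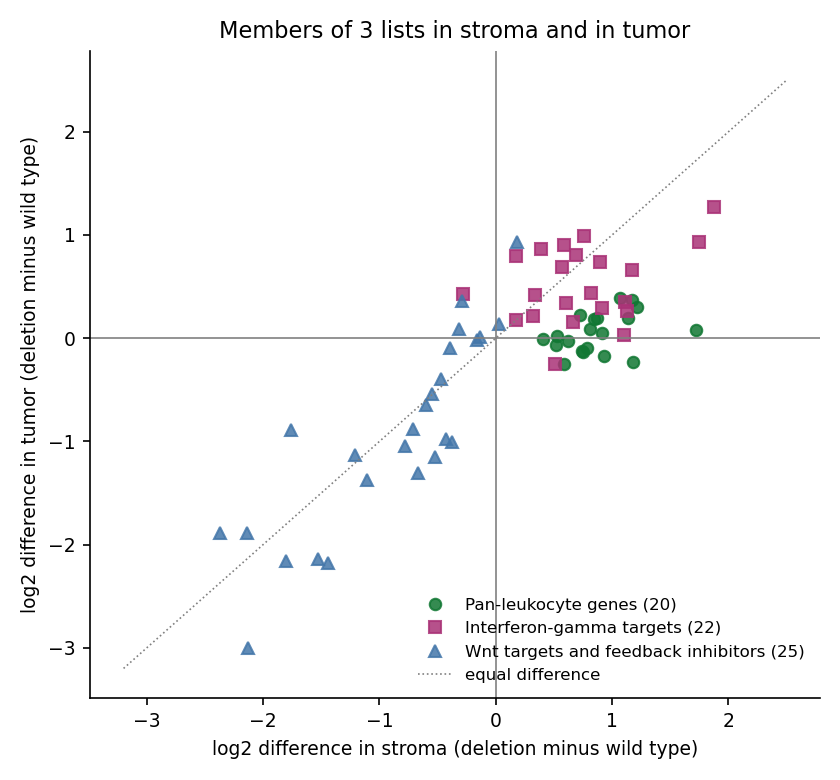
Log2 difference between deletion and wild type in stroma (horizontal) and in tumor (vertical) for the members of 3 gene lists, one point per gene, with a dotted line where both are equal. Pan-leukocyte genes lie right of 0 and near 0 on the tumor axis (medians 0.82 and 0.04), and most Wnt genes lie low on both axes (medians -0.60 and -0.98).

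Growth and vessel genes had small differences, mostly below 0. Of 28 tested cell cycle genes 24 lay below 0 and 5 were lower without overlap (5.62% of all genes). None passed the unadjusted threshold in either direction, and the median was -0.13. Of 20 endothelial genes 15 lay below 0 and 3 were lower at the unadjusted threshold, beside 1.94% of all genes, with a median of -0.16 that was 0.04 without deletion stroma 1. The 3 were Prox1 (-1.44 ± 0.62, with overlap), Robo4 (-0.53 ± 0.24) and Sox17 (-0.59 ± 0.27). Prox1 had a mean of 8.77 in wild type tumor and 7.18 in wild type stroma, while Vwf had 5.49 and 6.36. Which cells gave the Prox1 signal was not tested. Of 18 smooth muscle and pericyte genes 15 lay below 0 and 1 was lower, and the median of -0.18 ranged from -0.44 to 0.01 when single arrays were left out. The 20 ribosomal protein genes had a median of -0.07, the 17 angiogenesis factors one of -0.09 and the 13 genes of enteric glia and neurons one of -0.01, each with 0 genes at the unadjusted threshold. Skeletal muscle genes, which colon stroma should not hold, had a median of 0.03 with 0 of 9.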

How the data were processed

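Total RNA of 12 laser-captured samples, 3 in each of 4 groups (wild type and deletion, tumor and stroma), was hybridised to 1 single-colour Affymetrix array each. The authors deposited 1 log2 value for each of 41345 probe sets and array. The submitters' processing notes name robust multi-array average (RMA, which subtracts background, equalises arrays at the probe level and summarises probes) and Expression Console 1.3.1 by Affymetrix. RMA compresses differences of dim genes, and the values were used without further scaling. No genome build of the arrays was stated in the sources.

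The supplied platform annotation gave 1 gene symbol to 23521 probe sets, several to 1814, and did not list 16010, and the latter 2 kinds were left out. Of the 22180 genes, 1082 had several probe sets, and the brightest on average across all 12 arrays was kept, and the dimmest 25%, below 3.65, were left out. The remaining 16635 genes were fitted in limma 3.58.1 (R 4.3.3) with 4 group means over the 12 arrays, eBayes, two-sided tests and Benjamini-Hochberg adjustment within each contrast, checked on simulated data. Arrays of a group come from separate mice only as far as the labels' pooling note says. SE and p-values rest on the spread within all 4 groups of 3 arrays, tumor included. That pooled spread (8 residual degrees of freedom) is drawn toward the spread of other genes (6.45 prior degrees of freedom).

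Gene lists numbered 59, with 1155 names, of which 1057 matched a gene (12 through synonyms) and 981 were tested. They are described by counts and medians, without a test. The comparison and the lists were chosen with earlier results of these data known. Genes named were Stat3, the 15 with the smallest p and the 10 with the largest difference in each direction among non-overlapping genes, the 4 members of each list with the smallest p, the 8 in each direction with the widest gap of deletion stroma 1, the 6 in each direction with the smallest interaction p, and those called without one array. Ptprc, Cxcl13, Ifng, Isg15, S100a8, Socs3 and Bcl3 were named after their values were seen. Promoter windows came from a RefSeq table (GRCm38.p6), matched by symbol for 12947 tested genes.

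Alternatives were quantile normalization, median centring, other filters on dim genes, the mean of probe sets, the stroma arrays alone, an intensity trend, array weights, the spread of each array as covariate, replicate blocks and leaving out each array.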

Additional observations from a re-analysis of the deposited data

How the results depend on the processing

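Of 1248 values of 106 genes named in the text, under 12 settings other than leaving out an array, 4 lay on the other side of 0, all of Stat3: -0.01 with quantile normalization, -0.00 with array weights, -0.02 with gene-by-gene weights and -0.01 with the array spread as covariate. The count of genes past adjusted p 0.05 in stroma was 1 with quantile normalization, 164 with array weights, 45 with gene-by-gene weights and 13 with the spread covariate, and 0 to 2 without one array. The estimate of the array weights stopped before its tolerance was met, and the gene-by-gene estimate was added after seeing the data. At an unadjusted p under 0.05 these settings gave 1172, 882 and 866 higher genes (array weights, gene-by-gene weights, covariate) and 1081, 755 and 813 lower ones, quantile normalization gave 517 lower, and leaving out 1 array gave 204 (without deletion stroma 1) to 401 lower. With 2 arrays left in a group, 1342 to 2072 genes were higher and 1542 to 2120 lower without overlap, since fewer arrays overlap less often. In tumor the adjusted count was 5 with the dimmest 50% left out, 5 with an intensity trend, 1579 and 303 with the weights, 14 with the covariate, and 0 to 7 without one array. The interaction count was 4 and 3 with the weights. The cause of these changes was not tested.

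Without one array, ranges crossed 0 for Stat3 (-0.32 to 0.33), Il1b (-0.13 to 1.91), Il1a (-0.13 to 1.85), Ptgs2 (-0.31 to 2.22), Cxcl2 (-0.25 to 1.76), Cxcl3 (-0.43 to 1.95), Fabp2 (-0.46 to 2.06) and Bcl3 (-0.29 to 0.06). The medians of the 59 lists moved by less than 1 SD of the replicates in 700 of 708 cases under the 12 settings, and by more in 17 of 354 cases when a stroma array was left out.

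Replicate numbers are shared by the groups. Deviations of same-numbered wild type and deletion stroma arrays correlated at 0.152, -0.04 and 0.113, and not every array correlated best with its own number. The labels do not say what such arrays share beyond the number. Correlations over groups of 3 arrays cannot decide it. Same-numbered tumor and stroma arrays correlated at 0.439, -0.004 and 0.512 in wild type and at 0.123, 0.157 and 0.298 in deletion, and whether they share a mouse is not stated. With the number as a replicate block, 28 genes passed in stroma (591 lower at the unadjusted threshold) and 89 in tumor, and with genotype and number as a random block, which treats such arrays as 1 mouse, 0 passed in stroma, 3 in tumor and 0 in the interaction. Of the genes past the threshold, 9 were shared by the block, the gene-by-gene weights and the covariate: Ccl5, Cd53, Clec12a, Ctxn1, Cxcl9, Dkk2, Lama5, Lat and Phf11b. Among them, Clec12a passed the filter on dim genes through deletion stroma alone. These settings refit the same arrays, so the overlap adds no separate support. The main fit, the stroma arrays alone and the random block called 0 genes. The groups of 3 limit what can be called.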

Other observations

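None of the genes named here passed the adjusted threshold of limma. Beside the counts of this section, 3.14% of all genes were higher and 1.94% lower at an unadjusted p under 0.05. Of 22 tested genes of nitric oxide and oxidant enzymes, 5 were higher and 0 lower at that threshold, with a median of 0.05. Ncf1, a subunit of the phagocyte oxidase, read 5.63, 5.76 and 6.05 in wild type and 6.34, 6.42 and 6.42 in deletion stroma, and Duox2, an epithelial oxidase, differed by 0.89 ± 0.34, both without overlap. Of 16 tested complement genes, 14 had a difference above 0 and 3 were higher, with a median of 0.36, and the groups overlapped in each of them. Cfb, a factor of the alternative complement pathway, differed by 0.56 ± 0.23. Of 24 tested genes of xenobiotic metabolism, 3 were higher and 1 lower, with a median of 0.28. Cyp2c55, a cytochrome of the colon surface, read 3.97, 4.03 and 3.78 against 7.15, 5.42 and 4.28, and its difference of 1.69 ± 0.57 was 0.92 without deletion stroma 1.

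Among 16 tested genes of enteroendocrine and tuft cells, 3 were higher and 1 lower, with a median of 0.12. Pyy, the peptide hormone of colonic endocrine cells, read 4.01, 7.11 and 5.48 in wild type and 6.86, 7.49 and 8.25 in deletion stroma, with overlap. Nrg1, a ligand of ERBB receptors, read 6.88, 6.24 and 6.90 against 5.88, 5.92 and 5.95, a difference of -0.76 ± 0.29. H2ac1, a histone gene outside the histone list, differed by 1.15 ± 0.24 without overlap, while of 8 tested replication-dependent histone genes 0 were past the unadjusted threshold in either direction.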
